A study of Mus musculus with 2 samples.

Results

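The neuregulin and ErbB receptor genes examined here were Erbb4, Erbb3 and Egfr, which encode receptors, and Nrg1, Nrg2 and Nrg3, which encode ligands. They were taken by their symbols and make up 6 of the 32285 genes in the feature table. Their transcripts were counted by droplet-based single-cell RNA sequencing in the dissociated dorsal telencephalon of mouse embryos of wild-type genotype (WT), taken on embryonic day 16.5 (E16.5), with no treatment named. The tissue label reads brain hemispheres and the genotype label WT. The series also concerns Emx1Dot cKO embryos, which were not analysed here, so no genotypes are compared. The titles of both WT samples carry the name EmxDot. No background strain is named in the labels, and the study gives its E16.5 single-cell embryos as C57BL6/J. There were 2 libraries, called WT replicate 1 and WT replicate 6, and together they formed a single group.

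ErbB receptors are membrane tyrosine kinases that pair with one another when a ligand binds, and then signal through the Ras-MAPK, PI3K-AKT and STAT pathways. Neuregulins bind ERBB3 and ERBB4, whereas EGFR is bound by EGF, TGF-alpha and related factors. In the developing forebrain, NRG1 acting on ERBB4 is known to guide interneurons that migrate tangentially from the ganglionic eminences into the cortex. EGFR is known from late cortical progenitors and from cells of the oligodendrocyte and astrocyte lineages.

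To examine which cells carried each gene, cells with 1500 to 60000 unique molecular identifiers (UMIs, each standing for a captured mRNA molecule) and under 10% mitochondrial UMIs were sorted into 18 classes by panels of marker genes. None of the 6 genes was a marker. Of 16348 such cells, 11184 fell into a class and 1609 were GABAergic without a subclass. A further 1786 met no class definition, and 1769 passed more than one lineage gate and were left out. The 1786 may include cells past a single lineage gate, such as cycling cells past the excitatory gate. The main neuronal classes were 1095 interneurons of the medial ganglionic eminence (MGE), 354 of the caudal ganglionic eminence (CGE), 284 neurons of the type born in the lateral ganglionic eminence (LGE-type), 280 striatal neurons and 5980 excitatory neurons. Progenitor classes comprised 771 radial glia, 649 intermediate progenitor cells (IPCs) and 557 cycling progenitors of the ganglionic eminences. The remaining classes were 104 Cajal-Retzius cells, 61 oligodendrocyte precursor cells (OPCs), 468 erythroid cells, 163 mural cells, 151 microglia, 131 fibroblasts, 120 endothelial cells and 16 cells of a glial gate that includes Sox10 and Foxd3, which are named here by that gate. The defining markers of the main classes were present, with Lhx6 at 266 on the counts-per-million (CPM) scale in MGE and 7.25 CPM in CGE interneurons, Adarb2 at 10215 CPM in CGE interneurons, Ebf1 at 5214 CPM in striatal neurons and Pdgfra at 657 CPM in OPCs. These markers were part of the gates. Striatal neurons were thus present in tissue described as dorsal telencephalon. The libraries held 14136 and 13046 barcodes, of which 59 were shared, and 74930397 and 68964234 UMIs.

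Levels are given in CPM, the UMIs of a gene scaled to the total UMIs of the class in a library, with the mean ± SD of n = 2 libraries. Where cells from separate classes were of unlike depth, the share of cells with a UMI was taken after thinning every cell to 2000 UMIs, with shallower cells left out. Median depth was 3966 and 3659 UMIs in MGE interneurons and 3999 and 3518 in CGE interneurons, against 8864 and 8502 in radial glia and 8325 and 7615 in excitatory neurons. Erythroid cells, which should lack these genes, had 2946 and 3630. Globin genes took much of that depth, with Hbb-bs at 392549, Hba-a1 at 164893, Hba-a2 at 125999 and Hbb-bt at 124388 CPM on average. Fewer UMIs were thus left for other genes, so erythroid CPM and thinned shares are no depth-matched background. Levels are compared for the same gene between classes, never between genes, since long genes may gain counts from introns. Intervals and limits printed for counts cover counting error only.

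In the mm10 (GRCm38.p6) RefSeq annotation, Erbb4 spans 1077 kb of chromosome 1 (68031884 to 69108576), and Nrg1 spans 1084 kb of chromosome 8 (31807452 to 32891609). Nrg3 covers 1108 kb of chromosome 14 (38365102 to 39473235). Egfr is shorter, with 162 kb on chromosome 11 (16752203 to 16913907), as is Nrg2 with 183 kb on chromosome 18. Erbb3 extends over 22.1 kb of chromosome 10 (128567523 to 128589635).

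Erbb4, the neuregulin receptor gene of migrating interneurons, was highest in CGE and MGE interneurons. In MGE interneurons, WT replicate 1 had 11746 CPM and WT replicate 6 had 13045 CPM (12396 ± 918, n = 2), and CGE interneurons had 12183 and 13960 CPM (13072 ± 1256). The libraries of these 2 classes overlapped. LGE-type neurons followed with 3446 and 3603 CPM (3525 ± 111), OPCs with 1512 and 2102 CPM (1807 ± 417) and ganglionic eminence progenitors with 1067 and 894 CPM (980 ± 122). Each of these steps lay outside the spread of both libraries. Striatal neurons were far lower, with 263 and 130 CPM.

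In all other classes Erbb4 was at or below 117 CPM on average while mixed-lineage cells were left out, and most of these classes overlapped with their neighbours in the order. Microglia had 48.1 and 186 CPM, radial glia 98.3 and 83.2 CPM, erythroid cells 35.2 and 66.1 CPM, IPCs 48.6 and 21.4 CPM and excitatory neurons 37.2 and 31.6 CPM. GABAergic marker transcripts were also found in these classes, with the 6 markers summing to 36.8 and 36.9 CPM in radial glia, 31.8 and 31.6 CPM in excitatory neurons and 64.8 and 54.3 CPM in erythroid cells, against 2486 and 2712 CPM in MGE interneurons. No defining GABAergic marker was at 0 in these 4 classes. Their part in the low Erbb4 levels was not tested.

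At 2000 UMIs per cell, 97.6% of MGE interneurons had an Erbb4 UMI (95% Wilson interval 96.4 to 98.4%), as did 91.9% of CGE interneurons (88.4 to 94.4%) and 86.4% of 59 OPCs (75.5 to 93.0%). LGE-type neurons were split, with 64.6% positive (58.4 to 70.4%). The share was 35.3% in ganglionic eminence progenitors (31.4 to 39.3%) and 10.5% in striatal neurons (7.44 to 14.7%). Among erythroid cells it was 3.19% (1.83 to 5.49%), and excitatory neurons of the upper layers had 3.84% (3.28 to 4.49%). Radial glia had 9.09% (7.25 to 11.4%), close to the 9.38% of microglia (5.44 to 15.7%). Without thinning, the mean shares were 98.5% in MGE interneurons, 19.7% in radial glia and 7.30% in erythroid cells. Positive MGE interneurons carried a median of 40 Erbb4 UMIs and up to 342, positive radial glia a median of 2 and up to 38.

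Of all Erbb4 UMIs in the 18 classes and the GABAergic cells without subclass, MGE interneurons held 49.9%, CGE interneurons 17.7% and the GABAergic cells without subclass 19.99%. OPCs, with 61 cells, held 0.939%. Excitatory neurons, the most numerous class, held 1.48%.

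Egfr, the receptor gene of EGF and TGF-alpha, followed another order. OPCs were highest with 427 and 245 CPM (336 ± 129), above radial glia with 131 and 207 CPM (169 ± 53.8). Fibroblasts had 140 and 150 CPM (145 ± 6.85), within the range of radial glia, and mural cells had 137 and 97.3 CPM. Ganglionic eminence progenitors had 79.1 and 86.4 CPM, microglia 55.3 and 36.8 CPM and IPCs 10.2 and 19.0 CPM. Every postmitotic neuronal class lay at 10.1 CPM or lower on average. Erythroid cells, rich in globin transcripts, had 2.27 and 1.70 CPM.

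The order of the shares of cells was not that of the levels, as mural cells and fibroblasts came before radial glia. After thinning, Egfr was found in 27.1% of OPCs (17.4 to 39.6%), 21.9% of mural cells (16.2 to 28.9%), 17.7% of fibroblasts (12.1 to 25.2%) and 12.9% of radial glia (10.7 to 15.5%). It was found in 0.266% of erythroid cells (0.0470 to 1.49%) and in 0.307% of upper-layer neurons (0.176 to 0.536%). Without thinning, the count in single radial glia ranged up to 62 UMIs, with a median of 2 among the 192 positive cells.

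Erbb3, the kinase-impaired partner receptor known from Schwann cells and oligodendrocytes, had few or no UMIs in the neural classes. The 16 cells of the Sox10 and Foxd3 gate held 7 UMIs (79.0 CPM) in WT replicate 1, and 17 UMIs (208 CPM) came from WT replicate 6. OPCs held 2 and 4 UMIs (5.89 and 13.8 CPM). MGE interneurons, CGE interneurons, striatal neurons and ganglionic eminence progenitors had none, and 0 of 963 thinned MGE interneurons allows a share of cells with a UMI of up to 0.312% (3 counts of the total). The upper-layer neurons held 3 UMIs and the deep-layer neurons 8, all 8 of them in WT replicate 1. The gene had too few UMIs to enter any of the tests, so it counts as not tested in each comparison.

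**Figure D1:**
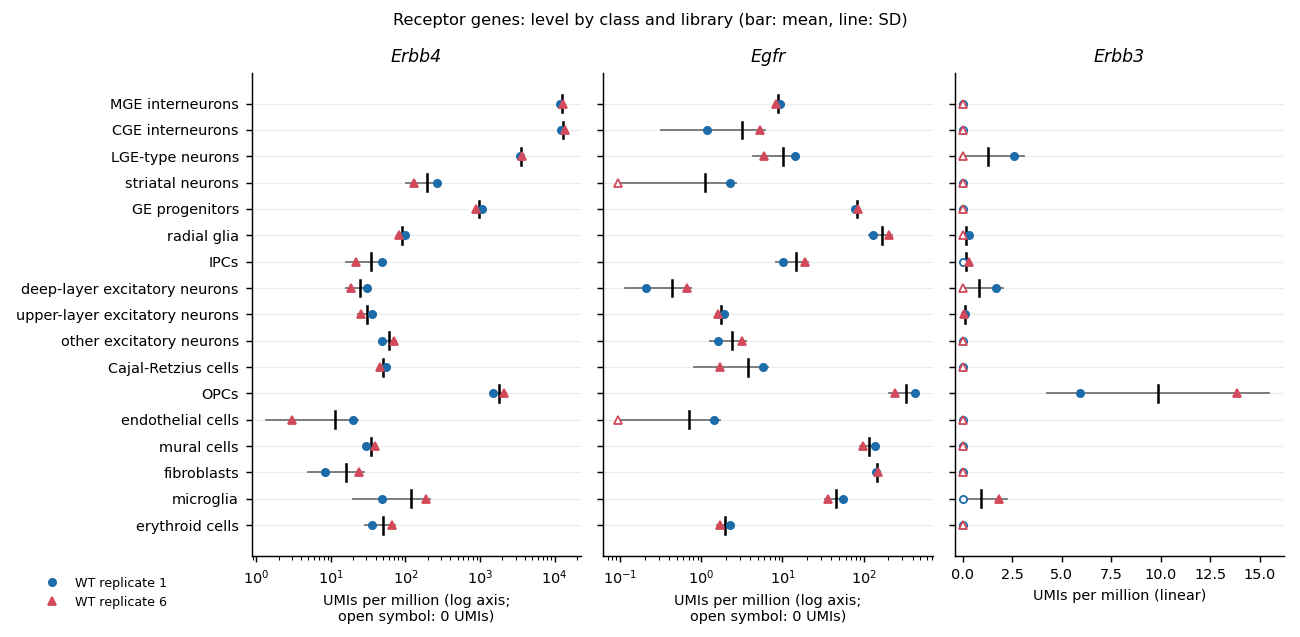
Level of each receptor gene in CPM (horizontal axis, logarithmic for Erbb4 and Egfr, linear for Erbb3) in 17 cell classes, with blue circles for WT replicate 1, red triangles for WT replicate 6, black bars for the mean and grey lines for the SD. Erbb4 peaks in CGE and MGE interneurons at 13072 and 12396 CPM, Egfr in OPCs at 336 CPM, and Erbb3 in OPCs at 9.86 CPM among the classes shown. Open symbols stand for 0 UMIs, GE for ganglionic eminence, and the 16 cells of the Sox10 and Foxd3 gate are left out.

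Nrg1, a ligand gene with many membrane-bound and secreted isoforms, was highest in the cortical progenitors. IPCs had 7410 and 7616 CPM (7513 ± 146) and radial glia 5235 and 5722 CPM (5478 ± 345). Upper-layer neurons had 3013 and 3265 CPM (3139 ± 178) and overlapped with Cajal-Retzius cells, which had 3638 and 2603 CPM. Excitatory neurons of neither layer gate had 1646 and 1717 CPM, and deep-layer neurons had 1017 and 1078 CPM.

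Among the GABAergic classes, Nrg1 was lowest in MGE interneurons and LGE-type neurons. MGE interneurons had 365 and 435 CPM (400 ± 49.5) and LGE-type neurons 370 and 332 CPM (351 ± 27.0), and the libraries of both overlapped. CGE interneurons had 967 and 1283 CPM, striatal neurons 977 and 850 CPM and ganglionic eminence progenitors 720 and 1010 CPM. Fibroblasts, endothelial cells, microglia, mural cells and erythroid cells averaged between 23.8 and 63.6 CPM, so that MGE interneurons still lay above them.

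At 2000 UMIs per cell, 95.5% of IPCs (93.6 to 96.9%), 86.3% of radial glia (83.7 to 88.6%) and 84.4% of upper-layer neurons (83.2 to 85.5%) had an Nrg1 UMI. Deep-layer neurons reached 64.9% (61.8 to 67.9%) and MGE interneurons 22.6% (20.1 to 25.4%). Erythroid cells had 6.91% (4.76 to 9.94%). Without thinning, positive IPCs carried a median of 63.5 Nrg1 UMIs and positive MGE interneurons a median of 2. These classes were of unlike depth, with medians of 9299 and 8522 UMIs in IPCs against 3966 and 3659 in MGE interneurons.

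Nrg3, a ligand gene whose product binds ERBB4, was highest in Cajal-Retzius cells with 3142 and 2641 CPM (2892 ± 354), and in deep-layer neurons with 2623 and 2662 CPM (2642 ± 27.7), where the libraries overlapped. CGE interneurons followed with 1758 and 1596 CPM, other excitatory neurons with 1443 and 1520 CPM and MGE interneurons with 1119 and 1303 CPM. Upper-layer neurons had 859 and 853 CPM and radial glia 441 and 454 CPM. IPCs had 212 and 188 CPM, LGE-type neurons 141 and 127 CPM and striatal neurons 131 and 141 CPM. The non-neural classes averaged 8.56 to 43.4 CPM, although mural cells moved from 17.4 to 118 CPM with stricter gates.

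The share of cells with an Nrg3 UMI was 92.2% in Cajal-Retzius cells (85.3 to 96.0%) and 81.9% in deep-layer neurons (79.3 to 84.3%). It was 48.8% in upper-layer neurons (47.2 to 50.3%), 49.1% in MGE interneurons (46.0 to 52.3%) and 45.3% in CGE interneurons (39.9 to 50.8%). LGE-type neurons had 9.47% (6.39 to 13.8%), against 3.99% in erythroid cells (2.43 to 6.48%).

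Nrg2 was sparse in every class. The highest averages were 34.0 CPM in CGE interneurons (40.6 and 27.4 CPM), 32.5 CPM in MGE interneurons (36.1 and 29.0 CPM) and 30.8 CPM in deep-layer neurons (33.6 and 28.0 CPM). Neuronal classes from CGE interneurons down to upper-layer neurons overlapped with their neighbours throughout. Progenitors were lower, with 7.65 and 4.07 CPM in radial glia, 9.53 and 5.51 CPM in IPCs and 8.07 and 4.72 CPM in ganglionic eminence progenitors. Endothelial cells, fibroblasts, mural cells and erythroid cells had at most 2 Nrg2 UMIs each, whereas microglia had 24.

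**Figure D2:**
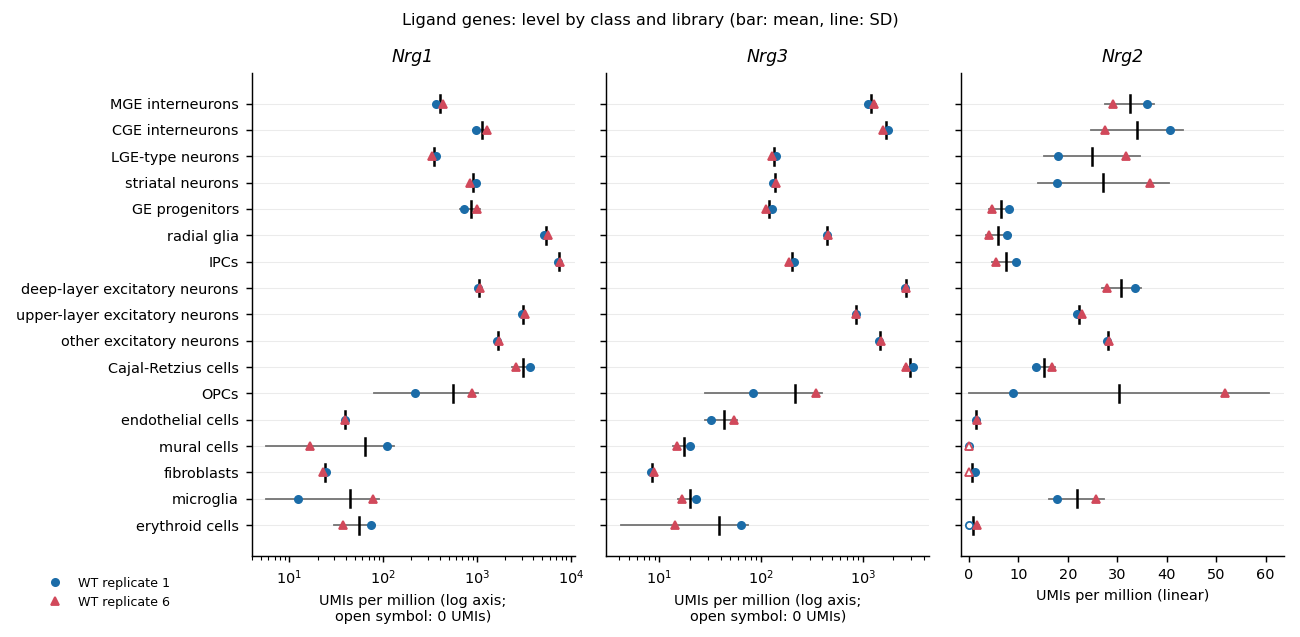
Level of each ligand gene in CPM (horizontal axis, logarithmic for Nrg1 and Nrg3, linear for Nrg2) in 17 cell classes, with symbols as in the plot of receptor levels. Nrg1 is highest in IPCs at 7513 CPM and Nrg3 in Cajal-Retzius cells at 2892 CPM, whereas Nrg2 stays at or below 34.0 CPM on average.

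**Figure D3:**
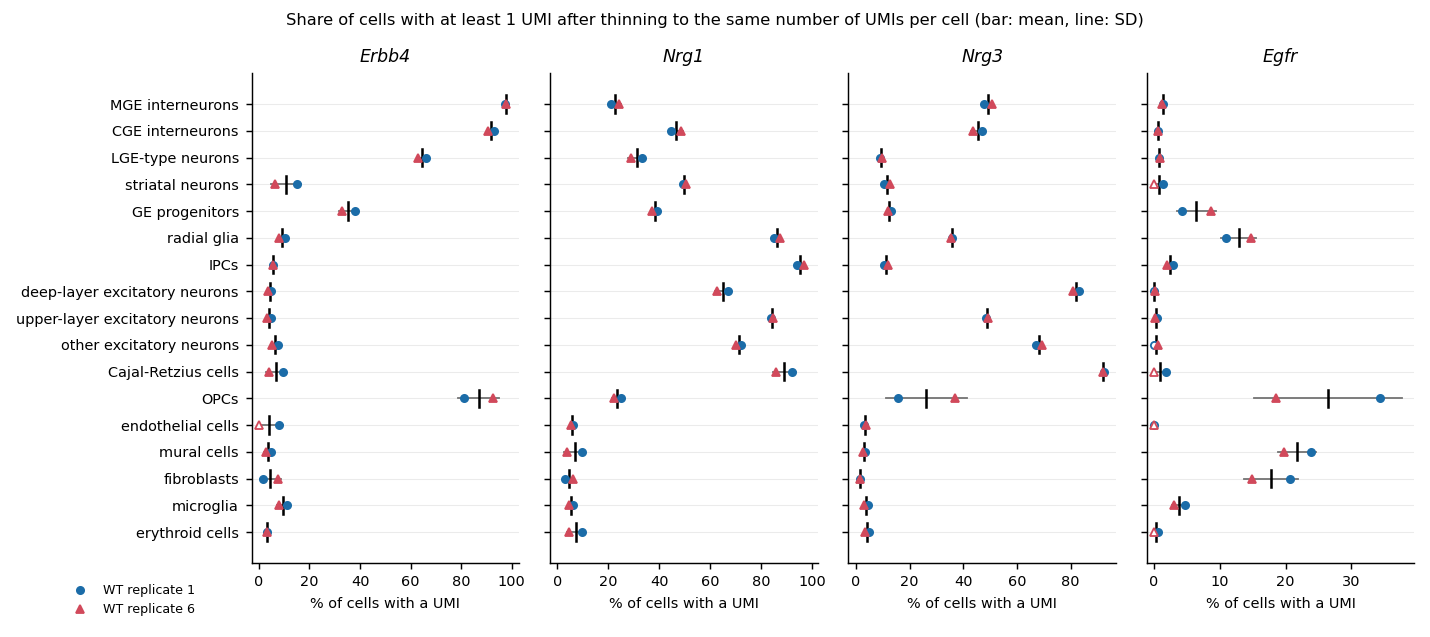
Share of cells with at least 1 UMI of Erbb4, Nrg1, Nrg3 or Egfr (horizontal axis, percent) after every cell was thinned to 2000 UMIs, by class and library, with the mean as a black bar and the SD as a grey line. Erbb4 is found in 97.6% of MGE interneurons but in 3.17% of erythroid cells on average, whereas Nrg1 is found in 95.4% of IPCs.

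The next question was whether the classes differed beyond the spread between libraries. UMIs were summed per library and class, and 9 pairs of classes, with a further 2 added later, were compared by the quasi-likelihood test of edgeR, two-sided, with Benjamini-Hochberg adjustment over all genes tested and a threshold of 0.05. A gene is said to be called, higher or lower, where its adjusted p was below that threshold. Log2 differences are written for the first-named class over the second, with a standard error (SE). The SE was derived as the size of the log2 difference over the square root of the test's F statistic. Differences within a library came from library totals without the scaling of the estimate, so an estimate can lie outside both library values. MGE interneurons as a whole entered 4 of the comparisons and radial glia 4, so the comparisons share cells and are not independent. Nothing in the labels says that the embryos came from separate litters, so the p-values measure only the spread between these 2 libraries.

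Between MGE interneurons and excitatory neurons, 3 of the 5 members tested were called, 2 higher and 1 lower, where 36.3% of all 15503 genes tested were called. Erbb4 was higher by 8.42 (SE 0.13) on the log2 scale, or 342-fold (edgeR adjusted p = 1.16e-09), and ranked 2 among all genes by log2 difference. Within the libraries the difference was 8.30 and 8.69. It fell to 5.93 when cells of more than one neural lineage were kept and was still called. Egfr was higher by 2.39 (SE 0.29, adjusted p = 0.000265), although with 43 UMIs in all MGE interneurons.

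Nrg1 was lower in MGE interneurons by -2.72 (SE 0.10) on the log2 scale, or 6.61-fold (edgeR adjusted p = 1.05e-07), and the libraries gave -2.72 and -2.59. Nrg2 (0.32, SE 0.13, adjusted p = 0.0821) and Nrg3 (-0.16, SE 0.09, adjusted p = 0.193) did not pass. Once the library entered as a replicate block, both passed by edgeR at much the same size, Nrg2 at 0.32 (adjusted p = 0.0432) and Nrg3 at -0.17 (adjusted p = 0.0305), so that all 5 were called. Within the libraries, however, Nrg3 differed by -0.21 in one and by 0.023 in the other, with opposite signs. The median log2 difference was 0.32 over the members and -0.02 over all genes.

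Between CGE and MGE interneurons, Erbb4 differed by 0.07 (SE 0.10) on the log2 scale and did not pass (edgeR adjusted p = 0.828). Nrg1 was higher in CGE interneurons by 1.49 (SE 0.15) or 2.81-fold (adjusted p = 2.78e-05), with 1.41 and 1.56 in the libraries. Nrg3 was higher by 0.47 (SE 0.13, adjusted p = 0.0379), with 0.65 and 0.29 in the libraries. The Nrg3 call was lost under 5 of 8 alternative settings, where adjusted p ranged from 0.0549 to 0.418. Thus 2 of 5 members were called, against 7.23% of 10631 genes. Egfr, with 5 UMIs in CGE interneurons, and Nrg2 did not pass.

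In LGE-type neurons, Erbb4 was lower than in MGE interneurons by -1.84 (SE 0.09) on the log2 scale, or 3.57-fold (edgeR adjusted p = 2.92e-07), and the libraries gave -1.77 and -1.86. Nrg3 was lower by -3.18 (SE 0.15), or 9.09-fold (adjusted p = 1.91e-07). Nrg1 differed by -0.20 (SE 0.14, adjusted p = 0.5), Nrg2 by -0.49 (SE 0.31) and Egfr by 0.26 (SE 0.48), none of them past the threshold. These 2 calls of 5 stand beside 9.4% of 10563 genes.

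Striatal neurons were lower than MGE interneurons in Erbb4 by -5.98 (SE 0.26) on the log2 scale, or 63.3-fold (edgeR adjusted p = 4.67e-09). The libraries gave -5.48 and -6.65, with 236 and 110 UMIs. Nrg3 was lower by -3.17 (SE 0.14, adjusted p = 5.93e-09), whereas Nrg1 was higher by 1.18 (SE 0.14, adjusted p = 3.34e-05). Egfr was called lower (-2.89, SE 0.78, adjusted p = 0.0211) on 2 UMIs in striatal neurons, and DESeq2 did not call it (adjusted p = 0.178). Hence 4 of 5 members were called, against 17.5% of 10551 genes.

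The study centres on interneurons that express somatostatin, so MGE interneurons with at least 1 Sst UMI (104 and 92 cells) were set against those without (448 and 451 cells). This comparison was added after the data had been seen. Sst was itself a marker of the MGE gate, so Sst+ cells needed fewer UMIs of its other markers to pass. The part of the gate in the differences below was not tested. Erbb4 had 7146 and 9132 CPM in Sst+ cells and 13105 and 14056 CPM in Sst- cells, so that the groups did not overlap. The difference was -0.78 (SE 0.12) on the log2 scale, or 1.72-fold lower in Sst+ cells (edgeR adjusted p = 0.00324), and it was called under every alternative with a test. At 2000 UMIs, 96.0% and 98.0% of the Sst+ and Sst- cells had an Erbb4 UMI. Without thinning, positive cells carried a median of 32 Erbb4 UMIs in Sst+ and 43 in Sst- cells.

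Nrg1 and Nrg3 were higher in Sst+ cells. Nrg1 had 552 and 602 CPM against 310 and 392 CPM, a log2 difference of 0.67 (SE 0.15, edgeR adjusted p = 0.0287). Nrg3 had 1602 and 1861 CPM against 976 and 1159 CPM, a difference of 0.65 (SE 0.13, adjusted p = 0.0192). By DESeq2 neither passed, with adjusted p of 0.135 and 0.0682, nor did they when cells of more than one lineage were kept (adjusted p = 0.0957 and 0.0517). Here 3 of 5 members were called and 3.48% of 9997 genes. Sst+ cells were deeper, with a median of 4892 and 4760 UMIs against 3758.5 and 3483, and the part of depth in these differences was not tested.

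Among progenitors, radial glia stood apart from excitatory neurons most in Egfr. It was higher by 6.49 (SE 0.25) on the log2 scale, or 90.0-fold (edgeR adjusted p = 4.38e-07), with 1172 UMIs in radial glia and 83 in excitatory neurons. Nrg1 was higher by 0.92 (SE 0.10, edgeR adjusted p = 9.14e-05) and Nrg3 lower by -1.73 (SE 0.09, adjusted p = 2.13e-06). Within the libraries, Nrg1 differed by 1.12 and 1.13 and Nrg3 by -1.55 and -1.50. Nrg2 was lower by -2.28 (SE 0.21, edgeR adjusted p = 5.06e-05). Erbb4 was called higher by 1.19 (SE 0.12, adjusted p = 8.9e-05). That call ended when cells of more than one neural lineage were kept, where the difference was -0.10 (adjusted p = 0.354). All 5 members tested were called, in a comparison where 64.4% of 15854 genes were, so the count says little about the members.

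Radial glia and IPCs share a lineage, and 4 of the 5 members differed between them, against 49.2% of 12694 genes. Egfr was higher in radial glia by 3.43 (SE 0.27) on the log2 scale, or 10.8-fold (edgeR adjusted p = 4.22e-06), and Nrg3 by 1.07 (SE 0.11, adjusted p = 2.59e-05). Nrg1 was lower by -0.54 (SE 0.09, adjusted p = 0.000739), and in a fit of all tested classes together it did not pass (adjusted p = 0.139). Erbb4 was called higher by 1.30 (SE 0.27, adjusted p = 0.00292), was not called by DESeq2 (adjusted p = 0.0708) and turned to -0.69 (adjusted p = 0.0207) with mixed-lineage cells kept. Nrg2 did not pass.

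Cycling radial glia (327 cells) were compared with the other 444, a comparison also added after the data had been seen. Egfr had 167 and 281 CPM in cycling cells and 95.4 and 121 CPM in the others, without overlap, and was higher by 1.10 (SE 0.21) on the log2 scale (edgeR adjusted p = 0.00343). Nrg1 was lower in cycling cells by -0.61 (SE 0.13, adjusted p = 0.00626), at 4439 and 4184 CPM against 5997 and 7504 CPM. Erbb4 was called lower by -1.21 (SE 0.23, adjusted p = 0.00358), but not with stricter gates (-0.42, adjusted p = 0.506). Nrg2 and Nrg3 did not pass, so that 3 of 5 were called, against 17.6% of 11268 genes. Cycling cells were deeper, with medians of 10519 and 9770.5 UMIs against 7289.5 and 7419.

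Ganglionic eminence progenitors differed from cortical radial glia in 4 of 5 members, against 46.2% of 12580 genes. Erbb4 was higher by 3.50 (SE 0.15) on the log2 scale, or 11.3-fold (edgeR adjusted p = 6.47e-07), with 3.44 and 3.42 in the libraries. The ligand genes Nrg1 (-2.60, SE 0.16, adjusted p = 3.06e-06) and Nrg3 (-1.83, SE 0.11, adjusted p = 3.17e-06) were lower. Egfr was lower by -0.96 (SE 0.19, adjusted p = 0.00282). Nrg2 differed by 0.20 (SE 0.43) and did not pass. All ganglionic eminence progenitors had passed the cycling gate, whereas 327 of the 771 radial glia had. Radial glia markers summed to 752 and 868 CPM in the former and to 10229 and 11882 CPM in the latter. The parts of cycling and of progenitor stage in these differences were not tested.

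OPCs were compared with radial glia on 33 and 28 cells. Erbb4 was higher by 4.40 (SE 0.27) on the log2 scale, or 21.1-fold (edgeR adjusted p = 5.81e-07), with 3.94 and 4.66 in the libraries. Egfr was called higher by 1.10 (SE 0.27, adjusted p = 0.017), with 1.71 within WT replicate 1 but 0.26 within WT replicate 6. Nrg1 was lower by -3.24 (SE 0.47, adjusted p = 0.000423), at -4.58 and -2.69 in the libraries, with 74 and 256 UMIs. Nrg2 was called higher by 2.37 (SE 0.66, adjusted p = 0.0322) on 3 UMIs from WT replicate 1 and 15 from WT replicate 6. Nrg3 did not pass (-1.01, SE 0.40, adjusted p = 0.13). It passed by edgeR when the library entered as a replicate block (-1.16, adjusted p = 0.000163) and in the fit of all tested classes together (-1.11, adjusted p = 0.00857).

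Of these 4 called members of 5 in OPCs, against 13.7% of 11629 genes, Erbb4 alone was called by edgeR without a filter on low counts. Excitatory markers summed to 53.1 and 76.1 CPM in OPCs and to 61.5 and 49.1 CPM in radial glia, and 3 of the 6 were at 0 in OPCs in each library. In OPCs they were higher in WT replicate 6, as were Nrg1, Nrg2 and Nrg3, and their part in the ligand values was not tested.

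Neurons of the deep-layer and upper-layer gates showed Nrg1 and Nrg3 in opposite order. These gates rest on markers and not on position. The upper-layer markers summed to 4740 and 4509 CPM in IPCs, beside 4311 and 4486 CPM in upper-layer neurons. The part of neuronal maturation in the differences below was not tested. Nrg1 was lower in deep-layer than in upper-layer neurons by -1.57 (SE 0.07) on the log2 scale, or 2.97-fold (edgeR adjusted p = 6.16e-07), at -1.57 and -1.60 in the libraries. Nrg3 was higher by 1.64 (SE 0.06) or 3.11-fold (adjusted p = 2.92e-07), at 1.61 and 1.64. Both were called in the same direction under every alternative with a test.

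Nrg2 was higher in the deep layers by 0.48 (SE 0.12, edgeR adjusted p = 0.0165) and was not called by DESeq2 (adjusted p = 0.0825). Egfr was called lower (-1.99, SE 0.59, adjusted p = 0.0351) on 4 UMIs in deep-layer neurons, again not by DESeq2 (adjusted p = 0.189). Erbb4 did not pass (-0.30, SE 0.24, adjusted p = 0.402) except with the replicate block (-0.31, adjusted p = 0.032) or stricter gates (-0.78, adjusted p = 0.00387). In this comparison 4 of 5 members were called, against 28.2% of 14295 genes.

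**Figure D4:**
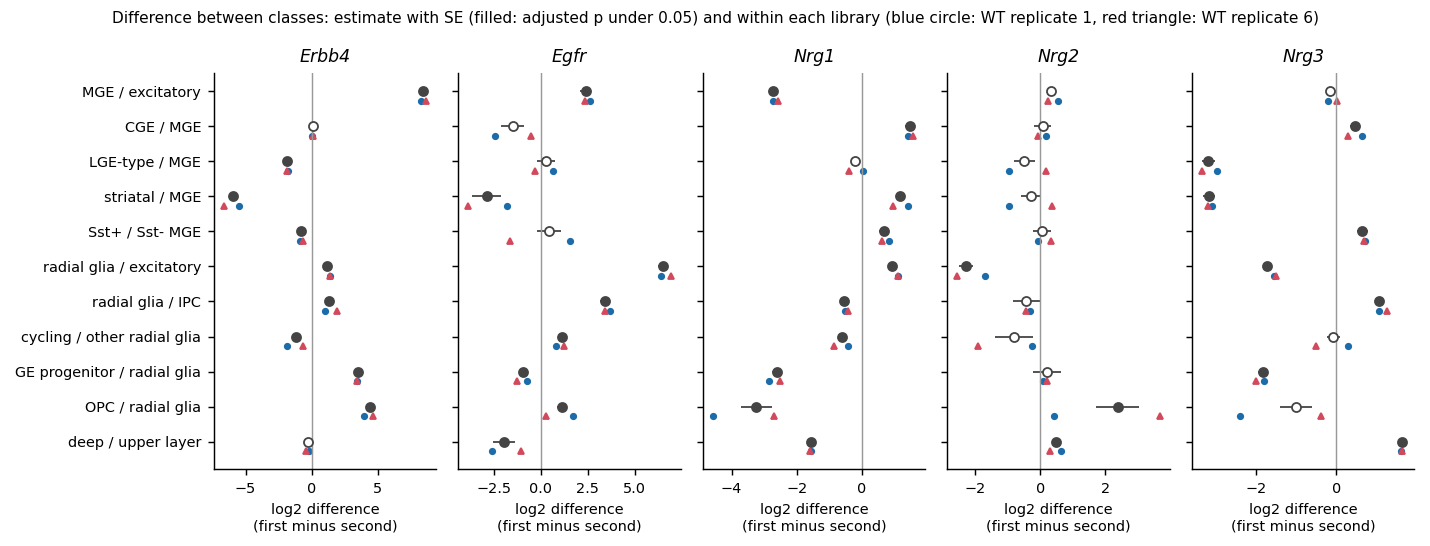
Log2 difference of each member (horizontal axis) in 11 comparisons of cell classes, first-named over second, with the edgeR estimate and its SE in black (filled where the adjusted p was below 0.05) and the difference within WT replicate 1 (blue circle) and WT replicate 6 (red triangle) beneath it. Between deep and upper layers Nrg1 sits at -1.57 and Nrg3 at 1.64, and Erbb4 lies at 8.42 between MGE interneurons and excitatory neurons. The differences within a library come from library totals without the scaling of the estimate.

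Whether single cells carried several members was examined after thinning to 2000 UMIs, as a description without a test, since the cells of a library are not replicates. Of 940 MGE interneurons with an Erbb4 UMI, 49.7% also had an Nrg3 UMI and 22.4% an Nrg1 UMI. As 97.6% of the class had Erbb4, these shares could only lie near those of the class, 49.1% and 22.6%. Among the 23 cells without Erbb4 they were 26.1% and 30.4%. Transcripts of the receptor and of a ligand were thus counted in the same cells, with no doublet caller run. Nrg3 was found in 49.5% of the MGE interneurons with Nrg1 and in 49.0% of those without. In upper-layer neurons the shares parted, with Nrg3 in 46.1% of 3294 cells with Nrg1 and in 63.1% of 610 without. In deep-layer neurons they were 81.2% and 83.1%. Radial glia showed the opposite order, with Nrg3 in 39.5% of 655 cells with Nrg1 and in 11.5% of 104 cells without. Erbb4 was found in 7.33% of the radial glia with Nrg1 and in 20.2% of those without.

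Across 17 classes with at least 20 cells in each library, log2(CPM + 10) of Nrg1 and Nrg3 correlated with a Pearson r of 0.753, and that of Erbb4 and Nrg2 with 0.561. Erbb4 with Nrg1 gave 0.106 and Egfr with Nrg3 -0.444. These values describe the 17 class means, which share the same 2 libraries, and carry no test.

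Among 11590 other genes of at least 20 CPM in a class, the pattern most like that of Erbb4 was seen for Gm42695 (r = 0.958), Gm38505 (0.954) and Gm20515 (0.950). Most like Nrg1 were the cadherin gene Cdh4 (0.913), the kinesin gene Kif21a (0.912) and Nkain2 (0.905). Nrg3 was followed by Nrg3os (0.943), Khdrbs2 (0.932) and Gm20642 (0.929). Nrg3os is named as antisense to Nrg3, and its reads may not be separable from those of Nrg3. Egfr was followed by Metrn (0.934), Tmem97 (0.916) and Zcchc24 (0.910), and Nrg2 by the receptor phosphatase gene Ptpro (0.907), Nav3 (0.906) and Gm36198 (0.898). Erbb3, at 9.86 CPM at most in these classes, was followed by Gm29502 (0.990), Gm10863 (0.979) and A330049N07Rik (0.975), and all 3 peaked in OPCs. Gene models with Gm numbers have no role stated here.

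The rest of the pathway was followed in a list of 52 genes: the receptor gene Erbb2, 11 other ligand genes, 3 sheddases, 21 adaptors and effectors, 13 negative regulators and 3 synaptic scaffolds. Between MGE interneurons and excitatory neurons, 17 of 46 tested were higher and 9 lower, so that 56.5% of the list was called beside 36.3% of all genes. Stat5b (3.64, SE 0.19) and Stat3 (1.82, SE 0.21), transcription factors downstream of the receptors, and Lrig3 (2.33, SE 0.44) were higher by the largest log2 differences. Tgfa, a ligand gene for EGFR (-2.19, SE 0.43), and the PI3K regulatory subunit gene Pik3r1 (-1.24, SE 0.13) were lower. The median over the list was 0.15, against -0.02 over all genes.

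Within the GABAergic classes, the list was called at 7.5% for CGE, 5.0% for LGE-type and 20.5% for striatal neurons over MGE interneurons, near the 7.23%, 9.4% and 17.5% of all genes. CGE over MGE interneurons, 3 of 40 were called, all higher, among them Pik3r1 (1.56, SE 0.18) and Fyn (0.51, SE 0.14), and 5 were called with the replicate block. LGE-type over MGE interneurons, 2 of 40 were higher, among them Pik3r1 (1.86, SE 0.18). In striatal neurons 5 of 39 were higher, led by Cspg5, which encodes a proteoglycan with an EGF-like domain (1.13, SE 0.15), Tmeff2 (0.93, SE 0.16) and Hras (0.56, SE 0.17). There, 3 were lower, Stat3 (-1.57, SE 0.47), the docking protein gene Gab1 (-1.45, SE 0.27) and the ubiquitin ligase gene Cblb (-0.53, SE 0.14). Sst+ against Sst- MGE interneurons gave 2 higher, Tmeff2 (1.71, SE 0.21) and Hras (0.72, SE 0.18), and 1 lower, the scaffold gene Erbin (-0.81, SE 0.16), of 40 tested, or 7.5% beside 3.48% of all genes.

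In radial glia against excitatory neurons, 15 of 47 list genes were higher and 21 lower, or 76.6% beside 64.4% of all genes. Erbb2, the co-receptor gene without a known ligand of its own, was higher by 6.70 (SE 0.43) on the log2 scale, followed by Lrig1 (4.01, SE 0.12), which restrains ErbB receptors, and Spry2 (2.997, SE 0.15), a Sprouty inhibitor of Ras-MAPK signalling. Lower were Tmeff1 (-2.28, SE 0.08), Tmeff2 (-2.12, SE 0.13) and Pik3r1 (-1.81, SE 0.09). Against IPCs, 10 of 45 were higher and 13 lower in radial glia, or 51.1% beside 49.2% of all genes, with Erbb2 (4.79, SE 0.67), Cspg5 (4.39, SE 0.15) and Spry4 (3.48, SE 0.60) at the top, and Tmeff1 (-1.90, SE 0.10) and Pik3r1 (-1.62, SE 0.17) at the bottom.

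Ganglionic eminence progenitors were higher than radial glia in 14 of 46 list genes and lower in 11, or 54.3% called beside 46.2% of all genes. Tmeff1 (1.31, SE 0.11), the adaptor gene Shc1 (0.89, SE 0.31) and Tmeff2 (0.84, SE 0.17) were higher, and Spry4 (-3.93, SE 0.63), Tgfa (-3.76, SE 0.54) and Cspg5 (-2.91, SE 0.15) lower. OPCs were higher than radial glia in 10 of 45 and lower in 2, or 26.7% called beside 13.7% of all genes. Spry1 (4.46, SE 0.36), Pik3r1 (3.67, SE 0.21) and Spry4 (3.66, SE 0.41) were higher, and Lrig1 (-1.41, SE 0.30) and the ubiquitin ligase gene Nedd4 (-0.79, SE 0.21) lower.

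Cycling radial glia had 4 of 42 list genes higher, with the adaptor gene Grb2 (0.68, SE 0.15), Cbl (0.67, SE 0.18) and Hras (0.53, SE 0.15) at the top, and 2 lower, Cspg5 (-1.19, SE 0.14) and Cblb (-0.48, SE 0.15). That is 14.3% of the list beside 17.6% of all genes. Deep-layer against upper-layer neurons gave 8 of 45 higher and 9 lower, or 37.8% beside 28.2% of all genes. Tmeff2 (2.05, SE 0.09), Lrig1 (1.33, SE 0.23) and Pik3r1 (1.05, SE 0.07) were higher, and Erbin (-1.91, SE 0.11), Gab1 (-0.51, SE 0.09) and the synaptic scaffold gene Dlg1 (-0.51, SE 0.07) lower.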

How the data were processed

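Single-cell suspensions of 2 WT embryos were sequenced as separate 10x Genomics 3' libraries. The authors deposited raw UMI counts per gene and cell, made with Cell Ranger 7.0.0 on mm10 according to the submitters' processing notes. Whether intronic reads were counted is not given in the sources used here, and counting them would raise long genes. Deposited barcodes held at least 500 UMIs, and each library had 68964234 to 74930397 UMIs, which limits sparse genes such as Erbb3, Nrg2 and Egfr to few counts in small classes.

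Marker panels were applied to cells of 1500 to 60000 UMIs in which mitochondrial genes took less than 10%. GABAergic, excitatory, IPC and subclass gates needed 3 UMIs from 2 genes, other gates 5 UMIs from 3 genes, layers 5 UMIs, and erythroid cells 20% of their UMIs. A subclass or layer had to lead by a factor of 2. Gate minimums were set after the panel counts had been seen. The members and gene lists were chosen with earlier results of these data known. No doublet caller was run, and cells past more than one lineage gate were left out.

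Counts were summed per class and library and tested with edgeR 4.0.16 (TMM scaling, quasi-likelihood, Benjamini-Hochberg adjustment, threshold 0.05) in R 4.3.3. Differences within a library used library totals without TMM and a prior count of 0.5. The model had no library term. Since both classes of a comparison came from the same embryo, libraries pair the sums, and deviations of sums from the same library correlated at r = 0.0568 to 0.328. Only classes with at least 20 cells per library were tested. Alternatives were DESeq2 1.42.0, no TMM, no low-count filter, the replicate block, a single fit of all tested classes, stricter gates (2 more UMIs), a stricter cell filter (3000 to 30000 UMIs, under 5% mitochondrial), mixed-lineage cells kept, and each library left out. All 6 members were named throughout. From the pathway list, the 3 called genes with the largest difference in each direction were named, and for likeness the 3 genes with the highest r. Values of some genes that these rules name are not reported here. Floors rest on 3 counts and intervals on 95% confidence. Tables and plots used Python 3.11.15, numpy 2.4.6, scipy 1.17.1, pandas 2.3.3 and matplotlib 3.10.9. The test was checked on simulated data.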

Additional observations from a re-analysis of the deposited data

How the results depend on the processing

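Of 55 member differences tested, 38 were called, and 25 of these were called in the same direction under every alternative with a test. The other 13 were lost or turned under at least 1, and the cause was not tested. With 1 library left out no residual degrees of freedom remain, so counts of calls have no such value, and member differences in the remaining library are values without a test.

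By DESeq2, the members called were 1 for CGE against MGE, 2 for OPCs against radial glia, 2 for deep against upper layers and 1 for Sst+ against Sst- cells. Pathway genes called were then 1 for LGE-type neurons, 3 for striatal neurons, 13 for ganglionic eminence progenitors, 1 for Sst+ cells and 1 for cycling radial glia. Over all genes DESeq2 called 459 for CGE, 560 for LGE-type and 935 for striatal neurons against MGE, 4040 for radial glia against IPCs, 3736 for ganglionic eminence progenitors, 2512 for the layers, 141 for Sst+ cells and 801 for cycling radial glia. The edgeR counts were 769, 993, 1842, 6242, 5811, 4030, 348 and 1985.

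With the library as a replicate block, 5 members were called for MGE interneurons against excitatory neurons, 5 pathway genes and 1184 genes for CGE against MGE, 5 pathway genes for Sst+ cells and 3037 genes for cycling radial glia. The single fit, which did not include the 2 comparisons added later, called 4 pathway genes for LGE-type neurons, 2 members for the layers and 1 member for CGE against MGE. Without a filter on low counts, 1 member and 709 genes were called for OPCs, and 6 pathway genes and 632 genes for Sst+ cells, where Nrg2 turned to -0.013.

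The stricter cell filter gave 1 member and 510 genes for CGE against MGE, 1 pathway gene for LGE-type and 4 for striatal neurons, and turned Nrg2 to -0.16 in Sst+ cells and to 0.016 in radial glia against IPCs. Stricter gates gave 1 member for CGE against MGE and 1 pathway gene for LGE-type neurons, and turned Nrg2 to -0.090 in Sst+ cells and Egfr to -1.23 in LGE-type neurons. With mixed-lineage cells kept, 1 member was called for CGE against MGE and 1 for Sst+ cells. Nrg2 then turned to -0.037 in Sst+ cells, Nrg3 to 0.19 in cycling radial glia, Nrg1 to 0.37 in LGE-type neurons, and Erbb4 to -0.10 in radial glia against excitatory neurons and to -0.69 against IPCs. Erbb4 levels then averaged 298 CPM in IPCs, 296 CPM in other excitatory neurons, 195 CPM in radial glia, 168 CPM in upper-layer and 134 CPM in deep-layer neurons. With an offset of 1 in place of 10, 2 of the 3 most alike genes were shared for Erbb3, Nrg1 and Nrg3 and 1 of 3 for Egfr.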
